A study of Danio rerio with 4 samples.

Results

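The Atf4 arm of the integrated stress response is described here by 10 genes in RNA sequencing of larval zebrafish hearts, of which 9 were found among the 20269 genes listed in at least 1 library. They were chosen by symbol (atf4a, atf4b, atf3, ddit3, asns, chac1, trib3, psat1, phgdh and sesn2), matched without case to the gene identifiers in the deposited tables. No entry carried the identifier of atf4a, which is not analysed here. All 9 passed the filter on low values that left 13591 genes for comparison. The files held 18296 Ensembl gene identifiers, so the genes listed include loci without one. Such loci can also be among the genes compared.

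The hearts came from Tg(vmhc:mCherry-NTR) larvae at 5 days post fertilization (dpf). In this line a vmhc (ventricular myosin heavy chain) promoter drives a fusion of mCherry and nitroreductase, an enzyme that turns metronidazole (MTZ) into a toxin, so that MTZ ablates ventricular cardiomyocytes and leaves cells without the transgene. The 4 groups were injured SIS3, injured DMSO, uninjured SIS3 and uninjured DMSO, with 1 library each. All 4 carried the transgene; injured hearts were taken 2 days post treatment. The protocol gives 5 mM MTZ for 4 hours at 72 hours post fertilization, then, from 76 to 124 hours, 2 µM SIS3 (which blocks Smad3 phosphorylation) or its vehicle, 0.2% DMSO. The sample titles mark the injured libraries MTZ and the uninjured ones C. Ablation and exposure to MTZ itself therefore cannot be told apart in the injury comparisons. The sources used here do not spell out how the uninjured larvae were treated, nor how many hearts were pooled per library.

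The integrated stress response starts when kinases that sense amino acid shortage, misfolded protein in the endoplasmic reticulum (ER), double-stranded RNA or lack of haem phosphorylate the initiation factor eIF2. Most translation then slows, while the mRNA of ATF4 is translated more, because short upstream reading frames no longer hide its start codon. ATF4, a basic leucine zipper factor, with partners such as C/EBP proteins and ATF3, switches on genes for amino acid synthesis and uptake, for loading tRNAs and, under long stress, for cell death through CHOP. Since ATF4 is controlled largely at translation, the level of its mRNA need not follow its activity.

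Values are FPKM (fragments normalised to transcript length and sequencing depth), deposited by the authors per transcript event and summed here to genes. Each library was divided by a scaling factor, and every level below is scaled FPKM. A change is the difference of log2(scaled FPKM + 1) and is called past 2-fold at an absolute value of at least 1. With 1 library per group there is no replicate, no error and no test, so every difference below is a description of 4 libraries. The read depth of each library is unknown, since FPKM values hold no counts. The tables listed 16657 genes in injured SIS3, 15691 in injured DMSO, 18207 in uninjured SIS3 and 17437 in uninjured DMSO hearts.

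The first question was how the response genes stood 2 days after ventricular ablation. By this measure asns was past 2-fold higher in the injured hearts with either compound, psat1 in DMSO alone and phgdh in SIS3 alone. In the other comparison psat1 and phgdh each lay just under the cut, which the pseudocount decides. Without the pseudocount those ratios were 2.01 for psat1 (injury in SIS3) and 2.03 for phgdh (injury in DMSO). The other 6 members were past 2-fold in neither. In the injured DMSO heart against the uninjured DMSO heart, 2 of 9 members, asns and psat1, lay past 2-fold on the higher side and none on the lower. Of all genes compared, 6.42% lay past it on the higher side, 8.95% on the lower and 15.4% on either. The median change of the 9 members was 0.61, that of all genes −0.02. In the injured SIS3 heart against the uninjured SIS3 heart, 2 of 9 again lay past it on the higher side (asns and phgdh) and none on the lower, against 6.25% higher, 6.98% lower and 13.2% either way of all genes. With a pseudocount of 5 FPKM both of these calls in SIS3 ended (asns 0.96, phgdh 0.75). With the pseudocount of 1 used elsewhere, the median for injury in SIS3 was 0.18 for the members and −0.02 for all genes. The DMSO and SIS3 injury comparisons have no library in common.

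**Figure D1:**
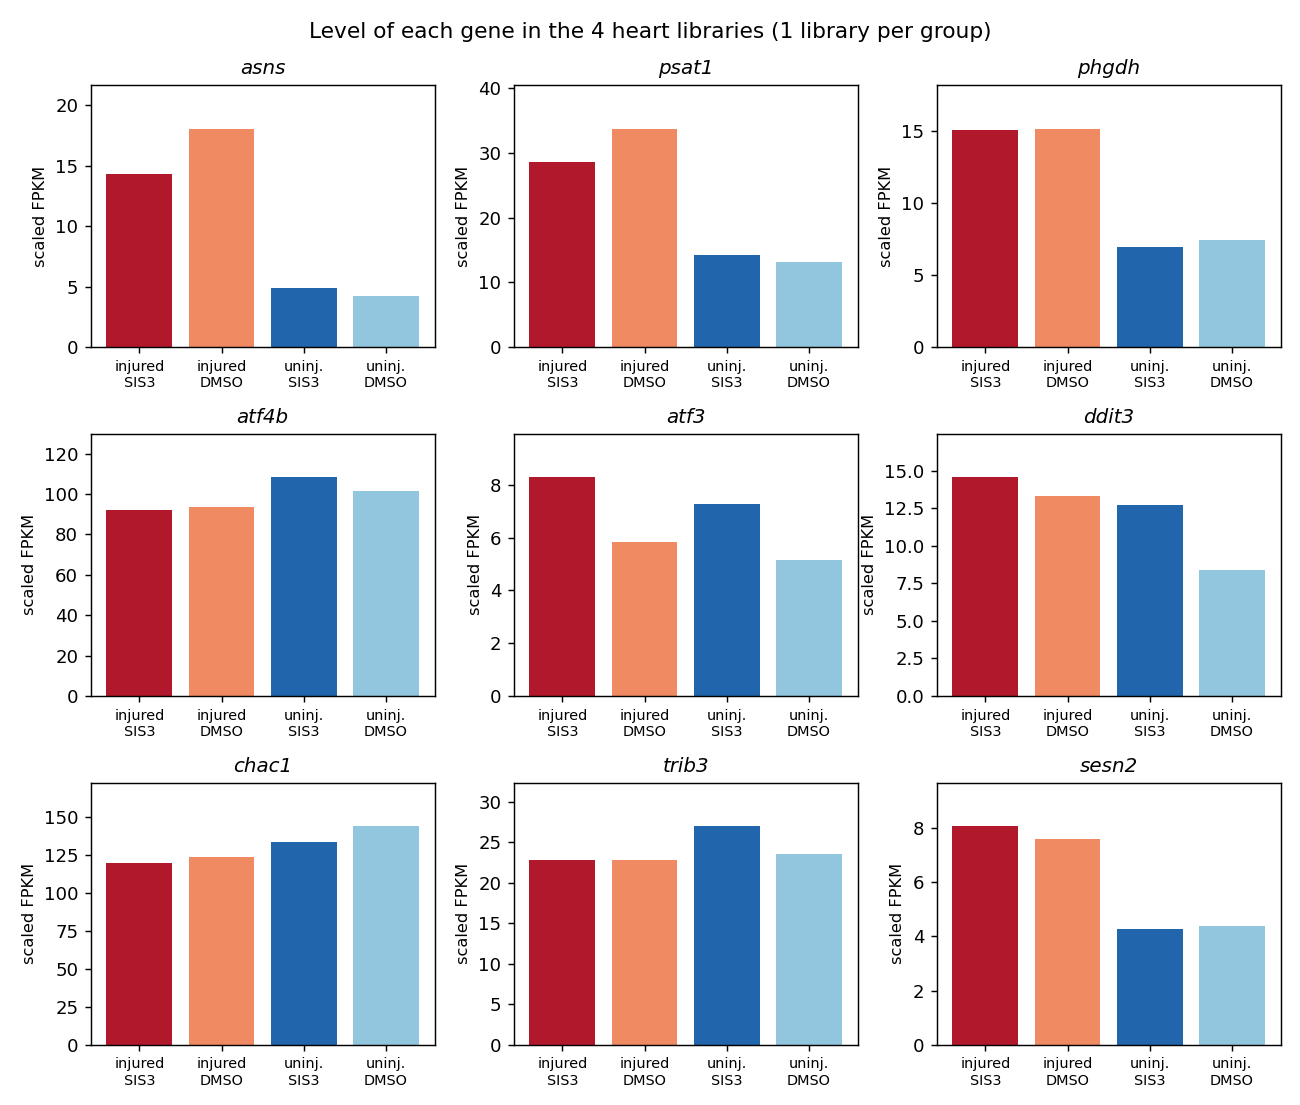
Bars give the scaled FPKM of each of the 9 genes in 1 library per group, with a linear axis from 0 in each panel; there are no error bars because there are no replicates. Both injured bars stand above both uninjured ones for asns, psat1, phgdh, sesn2 and, by less, ddit3, while atf4b, chac1 and trib3 are nearly level across the 4 libraries.

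The enzymes of amino acid synthesis come first. Asns (ENSDARG00000016375, chromosome 19, minus strand, GRCz10) encodes asparagine synthetase, which makes asparagine from aspartate and glutamine. Its level was 14.3 FPKM in injured SIS3, 18.1 FPKM in injured DMSO, 4.93 FPKM in uninjured SIS3 and 4.26 FPKM in uninjured DMSO hearts. The injured libraries were both above the uninjured ones, and the injured DMSO heart was the highest. The change was 1.86 for injury in DMSO, more than in 98.3% of all genes, and 1.37 for injury in SIS3, more than in 96.6%. Asns was the member with the largest injury change in either comparison. It was listed only through its first exon, at 26093704 to 26093779.

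Phgdh and psat1 encode the enzymes of the first and second steps of serine synthesis from a glycolytic intermediate, phosphoglycerate dehydrogenase and phosphoserine aminotransferase. Psat1 (ENSDARG00000016733, chromosome 5, 68713689 to 68727260, minus strand) was at 28.6 FPKM in injured SIS3, 33.8 FPKM in injured DMSO, 14.2 FPKM in uninjured SIS3 and 13.2 FPKM in uninjured DMSO hearts. Its change was 1.29 for injury in DMSO and 0.96 for injury in SIS3, just under the 2-fold line. Phgdh (ENSDARG00000001873, chromosome 9, 48488541 to 48516821, minus strand) was at 15.1 FPKM in injured SIS3, 15.1 FPKM in injured DMSO, 6.91 FPKM in uninjured SIS3 and 7.44 FPKM in uninjured DMSO hearts. The injured libraries were alike and again above the uninjured ones. The changes of phgdh lay on either side of the line, at 0.93 for injury in DMSO and 1.02 for injury in SIS3. Summed over asns, psat1 and phgdh, the level was 58.0 FPKM in injured SIS3, 67.0 FPKM in injured DMSO, 26.0 FPKM in uninjured SIS3 and 24.9 FPKM in uninjured DMSO hearts.

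The transcription factors differed less. Atf4b (ENSDARG00000038141, chromosome 3, 24067386 to 24070271, plus strand), a zebrafish copy of the gene for ATF4, was at 92.2 FPKM in injured SIS3, 93.7 FPKM in injured DMSO, 108 FPKM in uninjured SIS3 and 101 FPKM in uninjured DMSO hearts. Its highest library was 1.17 times its lowest, the smallest ratio of the 9 members. The change was −0.11 for injury in DMSO, which was 0.12 with the deposited values unscaled, and −0.23 for injury in SIS3. At these levels atf4b was among the more abundant transcripts, above 95.8% of the genes compared in the injured DMSO heart.

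Ddit3 (ENSDARG00000059836, chromosome 6, 58921658 to 58924855, plus strand) encodes CHOP, the factor tied to cell death after long stress. It was at 14.5 FPKM in injured SIS3, 13.3 FPKM in injured DMSO, 12.7 FPKM in uninjured SIS3 and 8.37 FPKM in uninjured DMSO hearts. The uninjured DMSO heart stood below the other 3. The change was 0.61 for injury in DMSO and 0.18 for injury in SIS3. Atf3 (ENSDARG00000007823, chromosome 20, 37891754 to 37897858, plus strand) encodes a stress-induced factor that pairs with AP-1 and C/EBP proteins. It was at 8.28 FPKM in injured SIS3, 5.84 FPKM in injured DMSO, 7.29 FPKM in uninjured SIS3 and 5.16 FPKM in uninjured DMSO hearts. The SIS3 libraries were above the DMSO ones, and the injury changes were 0.15 in DMSO and 0.16 in SIS3.

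The remaining members act as effectors or brakes. Chac1 (ENSDARG00000070426, chromosome 20, 28367802 to 28370372, plus strand) encodes an enzyme that degrades glutathione and is, in mammalian cells, among the transcripts that ATF4 and CHOP induce. It was the most abundant member in every library, at 120 FPKM in injured SIS3, 124 FPKM in injured DMSO, 133 FPKM in uninjured SIS3 and 144 FPKM in uninjured DMSO hearts. The injured libraries were the lower ones, with changes of −0.22 for injury in DMSO (0.01 with the deposited values unscaled) and −0.15 for injury in SIS3. Trib3 (ENSDARG00000016200, chromosome 11, 23820673 to 23825339, minus strand) encodes a pseudokinase that restrains ATF4 and CHOP. It was at 22.8 FPKM in injured SIS3, 22.8 FPKM in injured DMSO, 27.0 FPKM in uninjured SIS3 and 23.5 FPKM in uninjured DMSO hearts. Its changes were −0.05 for injury in DMSO (0.17 unscaled) and −0.23 for injury in SIS3.

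Sesn2 (ENSDARG00000070012, chromosome 19, 43745518 to 43761860, plus strand) encodes Sestrin 2, a leucine sensor that dampens the growth kinase complex mTORC1. It was at 8.07 FPKM in injured SIS3, 7.60 FPKM in injured DMSO, 4.29 FPKM in uninjured SIS3 and 4.40 FPKM in uninjured DMSO hearts. Its changes were 0.67 for injury in DMSO and 0.78 for injury in SIS3, higher after injury like the synthesis enzymes but under 2-fold. Without the pseudocount its ratio was 1.73 and 1.88 in the same 2 comparisons. Its paralog sesn1, also an inhibitor of mTORC1, lay the other way, at 31.8 FPKM in injured SIS3, 21.6 FPKM in injured DMSO, 70.8 FPKM in uninjured SIS3 and 75.3 FPKM in uninjured DMSO hearts (−1.75 for injury in DMSO, −1.13 for injury in SIS3). Of 9 paralogs of the members that were compared, sesn1 was the 1 past 2-fold in either injury comparison. On that lower side lay 8.95% of all genes in DMSO and 6.98% in SIS3. The list medians were −0.20 in DMSO (0.01 unscaled) and −0.16 in SIS3.

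**Figure D2:**
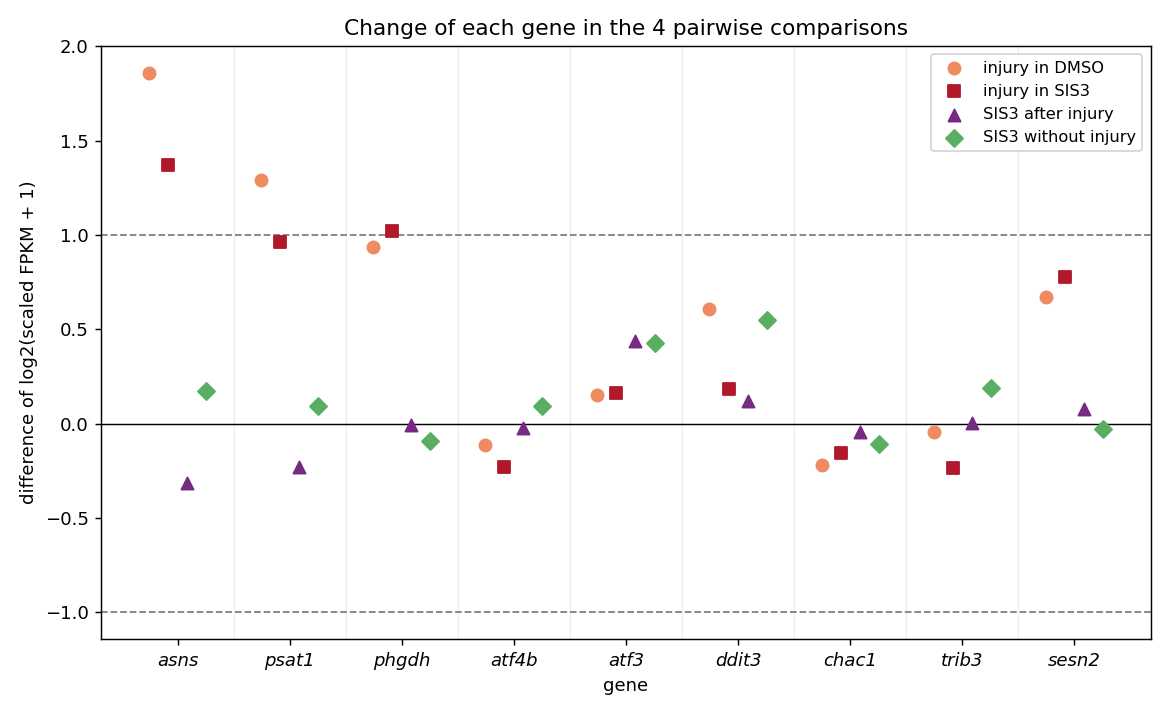
Each symbol is the difference of log2(scaled FPKM + 1) of 1 gene in 1 of the 4 pairwise comparisons, and dashed lines mark 2-fold. The injury changes of asns (1.86 and 1.37), psat1 (1.29 and 0.96) and phgdh (0.93 and 1.02) lie near or past the upper line, with psat1 in SIS3 and phgdh in DMSO just below it, and no SIS3 change reaches either line.

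A ratio of 2 genes within a library does not depend on how libraries are scaled. The ratio of asns to atf4b was 0.155 in injured SIS3, 0.193 in injured DMSO, 0.0456 in uninjured SIS3 and 0.0421 in uninjured DMSO hearts. The ratio of psat1 to atf4b was 0.310 and 0.360 in the injured SIS3 and injured DMSO hearts, and 0.131 in each uninjured heart. Relative to atf4b, both enzymes thus stood higher in the injured libraries whatever the scaling. Trib3 kept near the same proportion to atf4b, from 0.232 in uninjured DMSO to 0.249 in uninjured SIS3 hearts.

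The next question was how injured hearts given SIS3 differed from those given DMSO. No member was past 2-fold, higher or lower, in the injured SIS3 heart against the injured DMSO heart, where 4.33% of all genes were past it, 3.19% higher and 1.13% lower. The member median was −0.01 and that of all genes 0.00. The largest value was that of atf3, 0.44, with 8.28 FPKM in the injured SIS3 and 5.84 FPKM in the injured DMSO heart. Asns was lower by less than 2-fold (−0.32), at 14.3 FPKM in the injured SIS3 and 18.1 FPKM in the injured DMSO heart, and psat1 likewise (−0.23). Phgdh (−0.01), trib3 (0.00; −0.05 unscaled), atf4b (−0.02), chac1 (−0.05), sesn2 (0.08) and ddit3 (0.12) were within 0.13 of 0.

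Without injury, no member was past 2-fold in the SIS3 heart against the DMSO heart either, while 3.26% of all genes were, 1.82% higher and 1.44% lower. The member median was 0.09 and that of all genes −0.00. Ddit3 had the largest value, 0.55, at 12.7 FPKM in the uninjured SIS3 and 8.37 FPKM in the uninjured DMSO heart, a change exceeding that of 93.8% of genes. Atf3 followed with 0.43, so its SIS3 change was 0.44 in injured and 0.43 in uninjured hearts, in pairs that share no library. The other 7 members lay between −0.11 (chac1) and 0.19 (trib3).

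The injury change under SIS3 minus that under DMSO was below 2-fold for all 9 members, while 8.09% of all genes were past it by this measure, 4.89% higher and 3.19% lower. The most negative values were those of asns (−0.49), ddit3 (−0.43) and psat1 (−0.33). Those of atf3 (0.01), chac1 (0.06), phgdh (0.09) and sesn2 (0.11) were near 0, and each was below 0 with the deposited values unscaled. This difference uses all 4 libraries once and has no spread against which to set it.

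**Figure D3:**
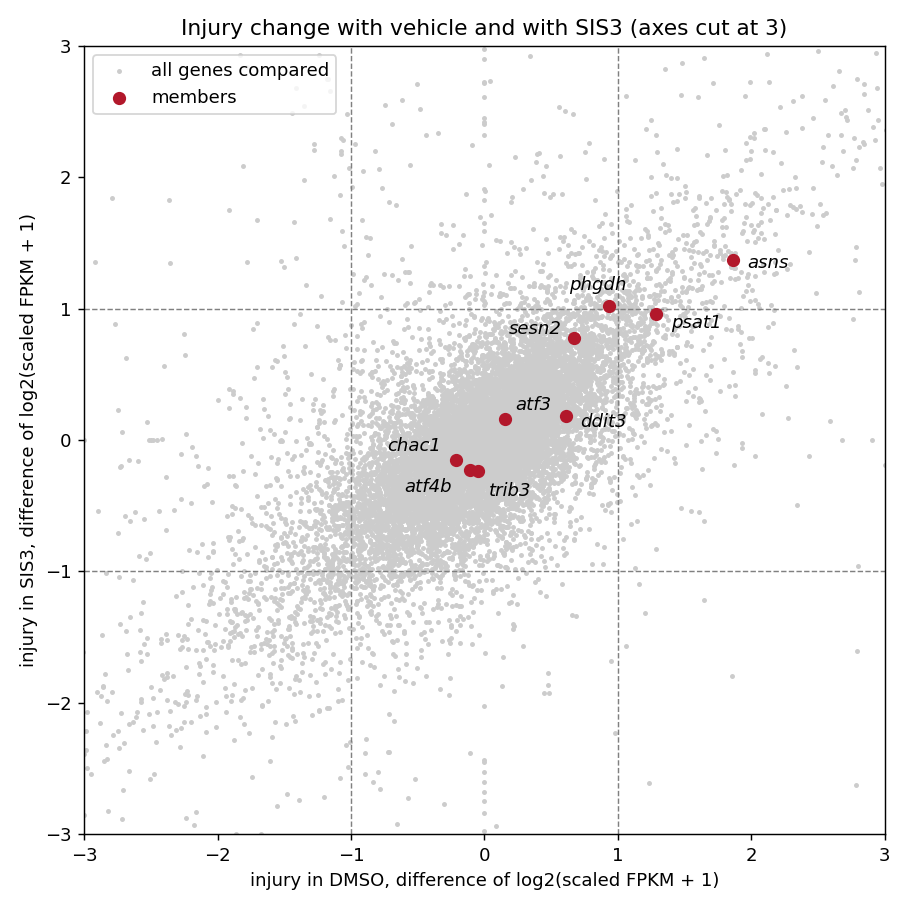
Each point is a gene, with its injury change in DMSO on the horizontal axis and in SIS3 on the vertical axis (both as differences of log2(scaled FPKM + 1)), grey for all 13591 genes compared and red for the 9 members. Asns lies past the 2-fold lines on both axes (1.86 and 1.37), phgdh and psat1 near their crossing, and atf4b, chac1 and trib3 close to the centre.

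The files describe transcripts by their first exons, last exons and internal events. Each member had 1 first exon, except sesn2, and 1 last exon, except asns, and no internal event was listed for any member. Sesn2 had a second first exon, at 43745518 to 43746028, which overlaps the main one at 43745579 to 43745742. It made up 2.68% of the gene's first exon FPKM in the uninjured SIS3 heart and 5.72% in the uninjured DMSO heart. These are low levels, 0.112 and 0.231 FPKM as deposited. In neither injured heart was it listed, which at such levels is not read as a change. For chac1 the last exon carried slightly less than the first, 123 against 124 FPKM (as deposited) in the injured SIS3 heart. For atf3, atf4b, ddit3, phgdh, psat1 and trib3, first and last exon carried the same deposited value in every library. In these genes a last exon value is therefore no separate check on the first exon value.

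Upstream of Atf4, transcripts of the kinases and of the phosphatase that ends the response were measured for 5 of 6 symbols, of which 3 passed the filter. The symbol matched to no entry was that of the kinase gene eif2ak4, which is not covered here. None of these 3 was past 2-fold for injury in DMSO or in SIS3, where 15.4% and 13.2% of all genes were. Eif2ak3, which encodes the ER stress kinase PERK, was at 3.81 FPKM in injured SIS3, 3.86 FPKM in injured DMSO, 6.23 FPKM in uninjured SIS3 and 6.61 FPKM in uninjured DMSO hearts (−0.64 and −0.59 for injury in DMSO and in SIS3). Eif2ak1, for the haem-regulated kinase, was at 3.97 FPKM in injured SIS3, 6.25 FPKM in injured DMSO, 6.88 FPKM in uninjured SIS3 and 7.88 FPKM in uninjured DMSO hearts. Both kinase transcripts were lowest in the injured SIS3 heart. Eif2ak2, for the double-stranded RNA kinase PKR, was under the filter, at 0.329, 0.713, 1.28 and 0.720 FPKM in the same order. Ppp1r15a, whose product GADD34 directs a phosphatase to eIF2, was at 41.8 FPKM in injured SIS3, 28.8 FPKM in injured DMSO, 29.2 FPKM in uninjured SIS3 and 35.9 FPKM in uninjured DMSO hearts. Of the 8 listed subunits of eIF2 and its exchange factor eIF2B, none was past 2-fold in either injury comparison (unscaled, 1 was for injury in DMSO). The shares of all genes to set beside this are again 15.4% in DMSO and 13.2% in SIS3. The eIF2 alpha subunit gene eif2s1a came nearest to 2-fold among the 8 subunits, with 44.4 FPKM in the injured and 22.4 FPKM in the uninjured DMSO heart (0.96). Its paralog eif2s1b, chosen after its values were seen, had 147 FPKM in the injured and 204 FPKM in the uninjured DMSO heart (−0.47). The eIF2 gamma subunit gene eif2s3b, which was not in the list and was chosen after its values were seen, was past 2-fold lower for injury in DMSO (−1.08) and at 0.575 for injury in SIS3.

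Downstream, the cytosolic aminoacyl-tRNA synthetases, which load amino acids onto tRNAs and many of which ATF4 induces in mammalian cells, were mostly higher after injury. Of 18 compared, 15 were above 0 for injury in DMSO and 16 for injury in SIS3, with medians of 0.42 and 0.61, and with unscaled values 16 in each. Over all genes, 48.2% were above 0 for injury in DMSO and 48.3% for injury in SIS3. Past 2-fold on the higher side were cars1 (1.00) and yars1 (1.12) for injury in DMSO, against 6.42% of all genes. The same 2 genes were so in SIS3, at 1.04 and 1.45, against 6.25% of all genes. Unscaled, 4 synthetases were in each comparison. Yars1, for the tyrosine enzyme, was at 37.4 FPKM in injured SIS3, 29.3 FPKM in injured DMSO, 13.0 FPKM in uninjured SIS3 and 12.9 FPKM in uninjured DMSO hearts. Kars1, for the lysine enzyme, lay the other way in DMSO, at 54.9 FPKM in the injured and 124 FPKM in the uninjured heart (−1.16, under 2-fold unscaled), whereas in SIS3 it was at 104 FPKM in the injured and 123 FPKM in the uninjured heart (−0.24).

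Amino acid transporters were mixed, with 1 of 14 past 2-fold on each side in either injury comparison. Of all genes, 6.42% were past it higher and 8.95% lower in DMSO, and 6.25% and 6.98% in SIS3. The transporter medians were 0.04 in DMSO (0.22 unscaled) and 0.09 in SIS3 (0.17 unscaled). Slc1a4, a carrier of serine and alanine, was the higher one, at 10.2 FPKM in injured SIS3, 8.06 FPKM in injured DMSO, 3.21 FPKM in uninjured SIS3 and 3.08 FPKM in uninjured DMSO hearts (1.15 and 1.42 for injury in DMSO and in SIS3). Slc43a1b was the lower one (−1.10 in DMSO, under 2-fold unscaled, and −1.99 in SIS3). It falls outside the rule for named genes and was chosen after its values were seen. Slc7a3a, an arginine carrier, had 12.7 FPKM in the injured and 8.38 FPKM in the uninjured DMSO heart (0.54).

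Other enzymes of serine, one-carbon and proline metabolism were not past 2-fold for injury in DMSO (14 compared, median 0.19), against 15.4% of all genes. In SIS3 the median was 0.31 and 1 was past it on the higher side (2 unscaled), against 6.25% of all genes. This was mthfd1l, chosen after its values were seen, at 2.05 FPKM in the injured and 0.475 FPKM in the uninjured heart (1.05). In the DMSO hearts mthfd1l was at 1.16 FPKM with injury and 0.641 FPKM without. It passed the filter on low values only through the injured SIS3 heart, where it was high, and its call carries no weight. Mthfd2, a mitochondrial folate enzyme and an ATF4 target in mammalian cells, had 48.9 FPKM in the injured and 33.0 FPKM in the uninjured DMSO heart (0.55). Pck2 had 8.06 FPKM in the injured and 6.08 FPKM in the uninjured DMSO heart (0.36).

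The list of 22 further targets of ATF4 or CHOP shares its jdp2, atf5 and cebpg genes with the paralog list above. For injury in DMSO 1 was past 2-fold on each side, against 6.42% higher and 8.95% lower of all genes. The median was −0.17 (unscaled, 3 higher, 1 lower and a median of 0.00). In SIS3 none was higher and 1 was lower, against 6.25% and 6.98% of all genes, with a median of −0.03 (0.05 unscaled). The higher one was the ER co-chaperone dnajc3a, with 16.9 FPKM in the injured and 5.69 FPKM in the uninjured DMSO heart (1.42, and 0.84 in SIS3). The lower one in each case was stc2a (−1.41 and −1.40), chosen after its values were seen. Stc2a was at 0.761 FPKM in injured SIS3, 0.430 FPKM in injured DMSO, 3.65 FPKM in uninjured SIS3 and 2.80 FPKM in uninjured DMSO hearts. It passed the filter on low values only through the uninjured hearts, where it was high, and its calls carry no weight. Vegfaa, the growth factor of vessels, had 9.86 FPKM in the injured and 4.46 FPKM in the uninjured DMSO heart (0.99), and in SIS3 at 9.82 FPKM in the injured and 6.89 FPKM in the uninjured heart. Nupr1b, a stress-induced chromatin protein, was at 24.6 FPKM in injured SIS3, 11.6 FPKM in injured DMSO, 18.8 FPKM in uninjured SIS3 and 22.9 FPKM in uninjured DMSO hearts, so the injured DMSO heart was the low one. Its change with SIS3 after injury was 1.02.

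The ER chaperones and other unfolded protein response genes had higher median injury changes than the Atf4 members, without being higher gene by gene. Of 23 compared, 14 were past 2-fold on the higher side and none on the lower for injury in DMSO (median 1.21; 19 with unscaled values), and 12 were higher and 1 lower in SIS3 (median 1.19). Over all genes, 6.42% were past it higher and 8.95% lower in DMSO, and 6.25% and 6.98% in SIS3. The lower ER gene in SIS3 was dnajb9a, chosen after its values were seen, which was not listed in the injured SIS3 heart. The ER chaperone BiP (hspa5) was at 272 FPKM in injured SIS3, 250 FPKM in injured DMSO, 72.9 FPKM in uninjured SIS3 and 60.4 FPKM in uninjured DMSO hearts. Its change was 2.03 for injury in DMSO, against 1.86 for asns, the highest of the Atf4 members. Mitochondrial stress genes had none of 7 past 2-fold in either injury comparison (medians 0.24 and 0.32), where 15.4% and 13.2% of all genes were. The gene dele1, which in mammalian cells carries mitochondrial stress to the eIF2 kinases, was at 13.4 FPKM in injured SIS3, 14.7 FPKM in injured DMSO, 26.2 FPKM in uninjured SIS3 and 23.3 FPKM in uninjured DMSO hearts.

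Of a list of Jun, Fos and Maf genes set beside atf3 (the AP-1 list), 6 were compared. Whether their products pair with Atf3 was not tested. Against 6.42% of all genes, 1 was past 2-fold on the higher side for injury in DMSO (2 unscaled). This was fosl2, at 15.0 FPKM in injured SIS3, 17.4 FPKM in injured DMSO, 3.46 FPKM in uninjured SIS3 and 3.38 FPKM in uninjured DMSO hearts (2.07, and 1.84 in SIS3). In SIS3, where 6.25% of all genes were past it higher, fosl1a (1.89) and maff were also past 2-fold. Both were chosen after their values were seen. Maff was listed in the injured SIS3 heart alone, at 14.3 FPKM. It thus passed the filter on low values only through the library where it was high, and its call carries no weight. It also enters the list medians of 0.54 in DMSO, with a change of 0, and 1.03 in SIS3. Without maff the middle gene of the list is fosb (0.75 in DMSO, 0.23 in SIS3), chosen after its values were seen.

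**Figure D4:**
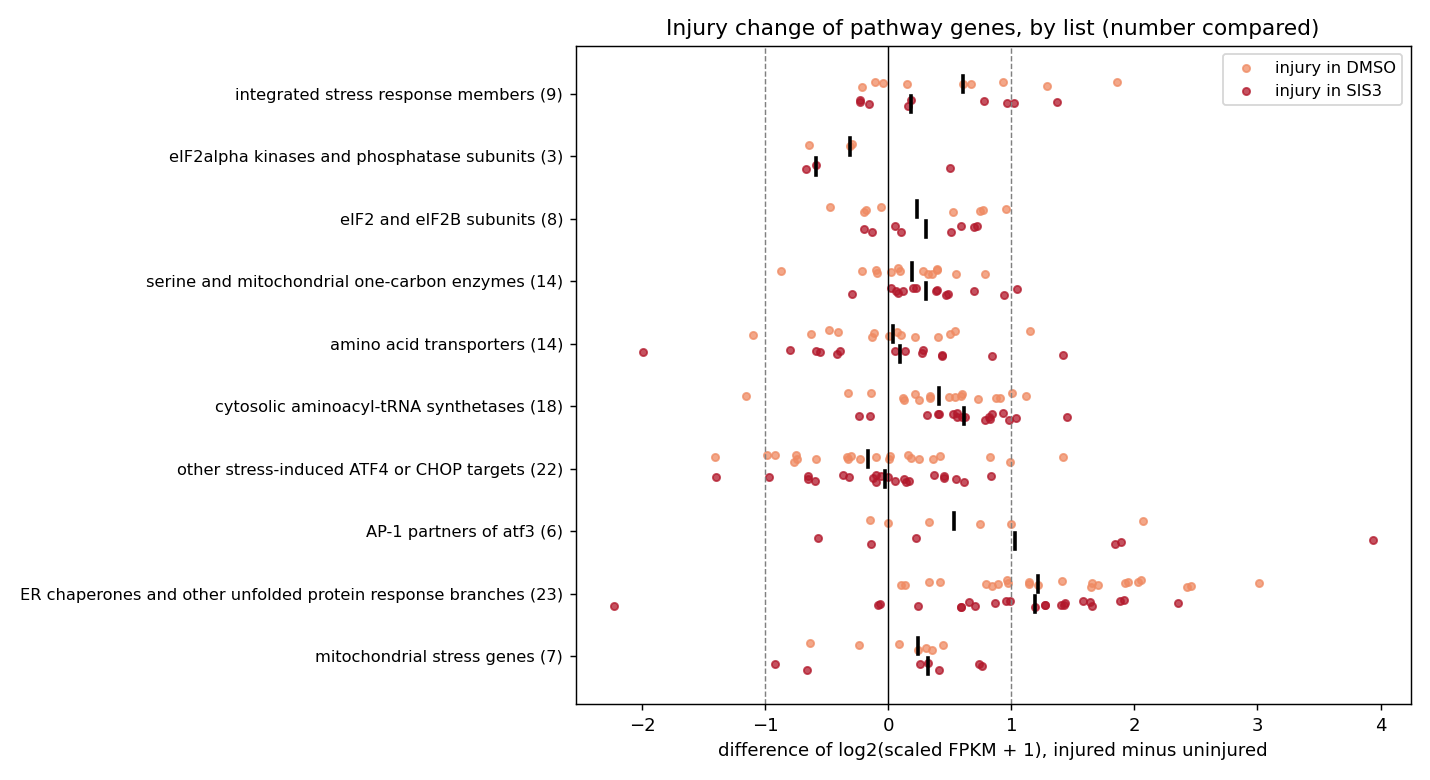
Points are genes by list, placed by their difference of log2(scaled FPKM + 1) between injured and uninjured hearts, in DMSO (upper, orange) and in SIS3 (lower, red); black bars are list medians and dashed lines 2-fold. The ER chaperone list has the highest median for injury in DMSO (1.21). With the AP-1 list left out, the 9 members at 0.61 and the synthetases at 0.42 follow. In SIS3 the order differs, with the ER chaperone list at 1.19 and the synthetases at 0.61. There the members, at 0.18, are also below the mitochondrial stress genes (0.32), the eIF2 and eIF2B subunits (0.31) and the serine and one-carbon enzymes (0.31). The AP-1 medians (0.54 in DMSO, 1.03 in SIS3) include maff, so the list is not ranked. Without maff its middle gene is fosb, at 0.75 in DMSO and 0.23 in SIS3, above the member median in each.

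The pattern of each member over the 4 libraries was compared with that of 6888 named genes averaging at least 5 FPKM, by Euclidean distance between centred log2 profiles. A distance of 0 means the same fold changes among the 4 libraries, and with 4 points many genes lie close. The nearest gene to asns was plod2, for a lysyl hydroxylase of collagen (distance 0.0406), at 63.5 FPKM in injured SIS3, 81.1 FPKM in injured DMSO, 24.9 FPKM in uninjured SIS3 and 21.8 FPKM in uninjured DMSO hearts. The next were il34, a cytokine of macrophages, and piezo2, a mechanosensitive channel, at 0.0902 and 0.103. The nearest to psat1 was sptlc2, for a subunit of the enzyme that uses serine to start sphingolipid synthesis (0.0320), and the nearest to phgdh was the synthetase gene cars1 (0.0602), which is in the list above. The nearest to sesn2 was gadd45b (0.0352), that to ddit3 nol12 (0.0303), that to atf3 cnot3b (0.0718) and that to atf4b tamalin (0.0259). Chac1 was nearest to exoc4 (0.0155) and trib3 to rlim (0.0184). The mean profile of the 9 members was nearest to ppp2cb, for a catalytic subunit of protein phosphatase 2A (0.0295).

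In bulk hearts, fewer cells of a type and less RNA per cell cannot be told apart, and the makeup of the libraries differed. Cardiomyocyte markers (8 of 10 symbols found) summed to 10373 FPKM in injured SIS3, 10499 FPKM in injured DMSO, 10210 FPKM in uninjured SIS3 and 11437 FPKM in uninjured DMSO hearts. Without the natriuretic peptide genes nppa and nppb, the other 6 summed to 5283 FPKM in injured SIS3, 5208 FPKM in injured DMSO, 9009 FPKM in uninjured SIS3 and 10258 FPKM in uninjured DMSO hearts. All but cmlc1 in injured SIS3 were listed, so the hearts held the labelled tissue. All 6 were below 0 for injury in DMSO. In SIS3, tnnt2a (1.13) and tnni1b (0.39) were above 0 and the other 4 below. Macrophage markers (8 of 10 symbols found) summed to 187 FPKM in injured SIS3, 274 FPKM in injured DMSO, 33.9 FPKM in uninjured SIS3 and 29.7 FPKM in uninjured DMSO hearts. The sum thus has the order of asns and psat1 over the libraries, but not every marker has it. For SIS3 without injury, csf1ra (−0.25) and c1qa (−0.57) were below 0 and the other 5 compared above. Of the macrophage markers, cd74a was not listed in either injured heart. Epicardial and fibroblast markers (8 of 9) summed to 708, 896, 316 and 338 FPKM, in the same order of libraries, and neutrophil markers (4 of 6) to 155, 121, 29.1 and 32.7 FPKM. In each injury comparison 6 epicardial and fibroblast markers were above 0 and 2 below. The 2 were pdgfra (−0.20 in DMSO, −1.37 in SIS3) and postnb (−0.38 and −0.54). Of the neutrophil markers, mmp9 was below 0 in DMSO (−0.09) and the other 3 above. Markers of other organs differed too. Hepatocyte markers (11 of 11) summed to 2822, 475, 446 and 796 FPKM, exocrine pancreas markers (7 of 14) to 569, 233, 1856 and 1706 FPKM, and fast skeletal muscle markers (6 of 13) to 629, 393, 874 and 1182 FPKM. All 6 muscle markers were below 0 for injury in DMSO, while in SIS3 3 were above and 3 below. Neuron and eye markers (11 of 14) summed to 7.92, 0.269, 141 and 227 FPKM, with 5 not listed in the injured SIS3 and 10 in the injured DMSO heart, among them elavl3, elavl4 and gnat1. Endothelial markers (5 of 7) were at 107, 120, 140 and 122 FPKM, and erythrocyte markers (2 of 7) at 5310, 4536, 6455 and 7703 FPKM. The part of these shifts in the results for asns, psat1, phgdh and sesn2 was not tested.

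**Figure D5:**
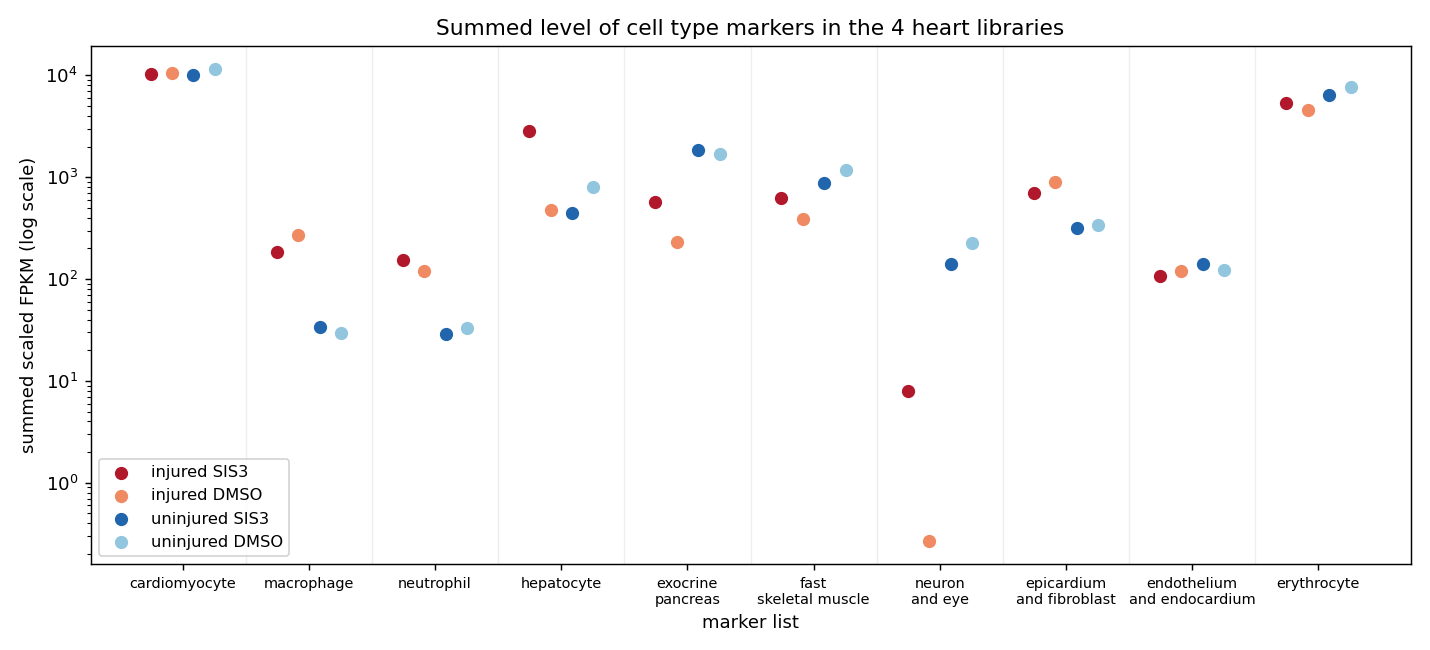
Points are the summed scaled FPKM of each marker list (log scale) in 1 library per group. The sums of macrophage, neutrophil and epicardial markers are higher in the injured libraries, and those of neuron, eye and exocrine pancreas markers lower. The sum of hepatocyte markers is highest in the injured SIS3 heart (2822 FPKM). Single markers can go against their sum, as pdgfra and postnb of the epicardial and fibroblast list do.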

How the data were processed

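RNA of 4 zebrafish heart libraries was analysed from the FPKM tables the authors deposited. Per the submitters' processing notes, CASAVA 1.8, HISAT2 2.0.5, HTSeq 0.6.1 and build GRCz10 were used, without a role for each; what wrote the tables is not stated. Per the file headers, a value belongs to a transcript event, and only values above 0 are listed. After exact repeats (293 to 346 entries per library) were removed, each gene took whichever was larger, its first exon sum or its last exon sum of FPKM, and an unlisted gene was set to 0, which can be a failed estimate. Libraries were scaled by the median ratio to their geometric mean, with log2 factors of 0.05 (injured SIS3), 0.11 (injured DMSO), −0.04 (uninjured SIS3) and −0.12 (uninjured DMSO). Unscaled, the median over all genes was 0.17 in the DMSO injury comparison and 0.05 in the SIS3 one. Genes with a mean of at least 1 scaled FPKM were compared, with a pseudocount of 1. No count was recovered and depth is unknown, so no interval is given.

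Symbols came from the reference gene names (17308 of 18296 identifiers had one); 26 pathway and 12 marker symbols were placed by shared neighbours in the RefSeq annotation of GRCz12tu. Of 184 pathway symbols 141 were found, and of 101 marker symbols 70; symbols with no entry include older names of the same genes. Members and lists were chosen with earlier results of these data known. Text names all members, the kinases, hspa5 and up to 4 genes per list with the largest injury change in DMSO and at least 5 FPKM; other names are marked. A planned search of promoters for motifs was not run, and no sequences are shown. Scripts (Python 3.11.15, pandas 2.3.3, numpy 2.4.6) were tested on simulated data.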

Additional observations from a re-analysis of the deposited data

Results flagged for a closer look

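For 4 genes the SIS3 change had opposite signs in injured and in uninjured hearts; the difference was not tested and cannot be with 1 library per group. Asns was at −0.32 after injury and 0.17 without injury, a difference of −0.49. Psat1 was at −0.23 and 0.09, a difference of −0.33. Atf4b was at −0.02 and 0.09, a difference of −0.12. Sesn2 was at 0.08 and −0.03, a difference of 0.11, and the second of these was 0.04 with unscaled values. All of these changes are below 2-fold.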

How the results depend on the processing

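Each result was recomputed under 9 alternatives. Some could hardly move a member. Changing the filter only drops genes and dropped no member, and first and last exon values are the same for most members. Of 45 changes of single members 9 changed sign between settings, and none of these was past 2-fold. All 9 did so in the unscaled setting, and sesn2 for SIS3 without injury also in last exon events only. Keeping repeated rows left these 9 as they were. The number of members at least 2-fold higher for injury in SIS3 was 2, but 0 with a pseudocount of 5 FPKM (asns 0.96, phgdh 0.75) and 1 in last exon events only, in which asns is not listed and 8 members remain. For injury in DMSO it was 2, but 1 in last exon events only, for the same reason. It was 3 in both comparisons unscaled and with a pseudocount of 0.1 FPKM. Phgdh for injury in DMSO passed 2-fold unscaled (1.14) and with a pseudocount of 0.1 FPKM (1.01), and so did psat1 for injury in SIS3 (1.05 and 1.01). Asns for injury in DMSO ranged from 1.32 to 2.06 and psat1 from 1.09 to 1.51 over the alternatives. The other counts, and all member medians, kept their side of the 2-fold line. Over all genes, the higher share of 2-fold calls for injury in DMSO was 41.8%, and 57.9% unscaled. No paired analysis was possible because each group has 1 library.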

Other observations

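An entry without a symbol in the reference tables (ENSDARG00000039515, chromosome 6, 251017 to 254425, plus strand, GRCz10) has rps19bp1 and rbfox2 as its neighbours on the same strand; in GRCz12tu, atf4a is among the genes between these 2. It was given no name and is not counted among the members. It was at 186 FPKM in injured SIS3, 173 FPKM in injured DMSO, 199 FPKM in uninjured SIS3 and 221 FPKM in uninjured DMSO hearts, with changes of −0.35 for injury in DMSO and −0.09 for injury in SIS3.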
